A study of Rattus norvegicus with 8 samples.

Results

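The urea cycle enzymes were taken as 6 rat genes, Nags, Cps1, Otc, Ass1, Asl and Arg1, found on the array through the RefSeq accession printed for each probe. Each of the 6 had 1 probe, and all 6 were among the 22871 features tested. In the series, liver RNA of male rats aged 22 weeks was hybridised to 8 arrays of 1 colour, 1 for each sample. Of these, 5 samples came from rats given high fat diet for 14 weeks, with NAFLD (non-alcoholic fatty liver disease) as the labelled disease state, and 3 came from rats given standard chow for the same time and labelled as controls. The labels give no strain and no composition of the diets, and they do not state that each sample is a different animal, so each p-value below reflects only how far these samples scatter, which may be technical.

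The urea cycle turns toxic ammonia, released when amino acids are broken down, into urea that the kidney excretes, and the liver is the organ that runs the whole cycle. It begins in mitochondria. There Nags makes N-acetylglutamate, the cofactor without which Cps1 is inactive, Cps1 joins ammonia and bicarbonate into carbamoyl phosphate, and Otc transfers that group to ornithine to give citrulline. In the cytosol Ass1 joins citrulline to aspartate, Asl splits the product into arginine and fumarate, and Arg1 cleaves arginine into urea and ornithine. The enzymes are densest in hepatocytes near the portal vein, while hepatocytes around the central vein take up the remaining ammonia with glutamine synthetase (Glul).

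The sequences before the start sites of 3 members, Ass1, Asl and Otc, are shown. Ass1 and Asl were lower on high-fat diet, though only Ass1 passed a limma adjusted p of 0.05. Otc overlapped between diets, and the 95% interval of its change held 0. The sequences are RefSeq sequence of the GRCr8 assembly, read 5′ to 3′ on the strand of the gene. Windows were found for 5 of the 6 members, not for Arg1. The Ass1 window is chr3:35149480-35149729 on the plus strand, 250 bases before the start; another annotated transcript begins further upstream, so the window lies within the span of the gene. The Asl window is chr12:32295658-32295778 on the plus strand, cut to the 121 bases furthest from the start, since another transcript begins after them. The Otc window is chrX:15202474-15202723 on the minus strand, 250 bases. Capitals mark matches to the motifs searched.
Ass1: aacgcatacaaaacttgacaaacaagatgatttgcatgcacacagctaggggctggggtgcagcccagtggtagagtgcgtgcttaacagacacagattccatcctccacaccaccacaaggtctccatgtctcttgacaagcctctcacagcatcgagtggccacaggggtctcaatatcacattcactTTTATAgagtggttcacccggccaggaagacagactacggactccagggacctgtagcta
Asl: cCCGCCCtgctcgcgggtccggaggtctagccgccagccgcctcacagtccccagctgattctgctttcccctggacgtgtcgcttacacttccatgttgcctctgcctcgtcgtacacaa
Otc: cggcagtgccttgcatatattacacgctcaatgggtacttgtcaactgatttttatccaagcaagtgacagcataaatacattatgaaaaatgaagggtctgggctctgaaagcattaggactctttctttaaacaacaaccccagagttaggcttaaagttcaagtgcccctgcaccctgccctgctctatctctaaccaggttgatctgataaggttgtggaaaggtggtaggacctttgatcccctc

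The windows differ in base composition, with 51.2% G and C in Ass1, 63.6% in Asl and 44.4% in Otc. Of 6 motifs searched on both strands, the TATA box was spelled TATAAA, the promoter element known as the CCAAT box by its own letters, and the GC box GGGCGG. The binding motif of C/EBP factors, which drive many liver genes, was spelled TTGCNNAA. The half-site of the cyclic AMP response element, a target of glucagon signalling, was spelled TGACG, and the last motif was the glucocorticoid response element. No match overlapped another in the windows shown. Ass1 held 1 match, TATAAA on the opposite strand and 60 bases before the start, a motif present in 12.9% of the 33469 rat windows of that length. Asl held 1 match, GGGCGG on the opposite strand and 249 bases before the start, present in 12.7% of windows cut to 121 bases. Otc held none of the 6. Of the 250-base windows, 34.0% held the CCAAT box, 30.5% the GC box, 9.22% the C/EBP motif, 18.2% the cyclic AMP half-site and 0.373% the glucocorticoid element. A match is a run of letters, not evidence that a factor binds, and no match says only that these letters are not in the window.

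Expression is given as log2 processed signal after the 75th percentile of the array was taken off, so that 1 unit is a 2-fold difference. All 6 members were well above background on all 8 arrays. On high-fat diet Ass1 was lower and passed the test, Asl was lower by a similar amount and narrowly missed it, Nags was lower by less, and Cps1, Otc and Arg1 overlapped between diets. Of the 6 members, 1 fell (Ass1) and 0 rose at an adjusted p of 0.05 (limma, Benjamini-Hochberg over all features). Across the array, 3.56% of features passed, 0.49% as lower and 3.07% as higher. With p-values adjusted over single probes the same gene fell (Ass1, adjusted p = 0.0363), against 0.453% of probes lower and 3.00% higher. The 6 fold changes ran from −0.84 to 0.17 on the log2 scale, 5 of them negative (Arg1 changes sign under quantile and cyclic loess normalization, and Cps1 where the background correction is normexp), with a median of −0.31, against a median of −0.0054 over all features. Because these are whole pieces of liver, fewer hepatocytes and less RNA in each hepatocyte cannot be told apart.

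Ass1, the enzyme that brings the aspartate nitrogen into the cycle, had values of 5.36, 5.23, 5.39, 5.50 and 5.46 on high-fat arrays 1 to 5, against 6.14, 5.95 and 6.57 on chow arrays 1 to 3. The highest high-fat array lay below the lowest chow array, and the high-fat arrays lay closer together than the chow arrays. The means were 5.39 ± 0.10 (SD, n = 5) for high-fat livers and 6.22 ± 0.32 (SD, n = 3) for chow livers. Ass1 was 1.78-fold lower, a log2 fold change of −0.84 ± 0.17 (SE; 95% interval −1.22 to −0.45; limma adjusted p = 0.0351). The call did not survive leaving out single arrays: it was kept without chow array 2 (adjusted p = 0.0438) and lost without any 1 of the other 7, where the adjusted p reached 0.104 (without chow array 1).

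Asl, the lyase that follows Ass1, had values of 4.86, 4.69, 4.68, 4.89 and 4.52 on the high-fat arrays, against 5.30, 5.29 and 5.67 on the chow arrays. These did not overlap either. The means were 4.73 ± 0.15 (SD, n = 5) for high-fat livers and 5.42 ± 0.22 (SD, n = 3) for chow livers, a log2 fold change of −0.69 ± 0.16 (SE; 95% interval −1.05 to −0.33; limma adjusted p = 0.0545). Within each diet the array with the highest Asl value, high-fat array 4 and chow array 3, was also the one with the highest Ass1 value. The 3 chow arrays had the same order in both genes, while the rest of the order of the high-fat arrays was not shared. High-fat array 5 had the lowest Asl value (4.52), while its Ass1 value (5.46) lay above those of high-fat arrays 1 to 3.

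Arg1, the arginase that releases urea, had values of 6.15, 5.91, 5.67, 6.33 and 5.94 on the high-fat arrays, against 6.43, 5.83 and 6.38 on the chow arrays. The diets overlapped, since chow array 2 lay below 4 of the 5 high-fat arrays. Its log2 fold change was −0.22 ± 0.21 (SE; 95% interval −0.69 to 0.26; limma adjusted p = 0.626), and 0.07 after quantile normalization. A decrease as large as that of Ass1 lay outside its interval. The Arg1 probe is printed in 10 spots on each array. The SD between those spots was 0.049 to 0.219 on the log2 scale, against an SD between arrays of 0.25 on high-fat diet (n = 5) and 0.33 on chow (n = 3).

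Otc, the mitochondrial enzyme that makes citrulline for Ass1, had values of 3.59, 3.58, 3.62, 3.49 and 3.36 on the high-fat arrays, against 3.46, 3.62 and 3.00 on the chow arrays. The high-fat values lay close together and inside or at the edge of the span of the chow values, whose lowest was that of chow array 3. The log2 fold change was 0.17 ± 0.17 (SE; 95% interval −0.22 to 0.56; limma adjusted p = 0.645), and −0.01 without chow array 3. Cps1, the entry enzyme of the cycle, had values of 3.26, 2.82, 3.67, 3.84 and 3.21 on the high-fat arrays, against 3.26, 3.88 and 3.52 on the chow arrays. It had the largest spread of the 6 members within the high-fat group, an SD of 0.40 (n = 5) against 0.10 to 0.25 for the others. Its log2 fold change was −0.19 ± 0.26 (SE; 95% interval −0.78 to 0.39; limma adjusted p = 0.741), and 0.17 with a normexp background.

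Nags, which sets the activity of Cps1 through its product, was the dimmest member. It had values of 0.40, 0.31, 0.06, 0.35 and 0.51 on the high-fat arrays, against 0.56, 0.79 and 0.85 on the chow arrays. The diets did not overlap, though high-fat array 5 and chow array 1 lay close together. The log2 fold change was −0.41 ± 0.15 (SE; 95% interval −0.76 to −0.06), with an unadjusted limma p of 0.0273 and an adjusted p of 0.188. Thus 3 of the 6 members, Ass1, Asl and Nags, were lower on high-fat diet with no overlap between the diets, a pattern found in 9.17% of all features, while 7.94% did not overlap and were higher. The same 3 had an unadjusted limma p of at most 0.05, as did 9.37% of all features in that direction and 20.2% in either.

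**Figure D1:**
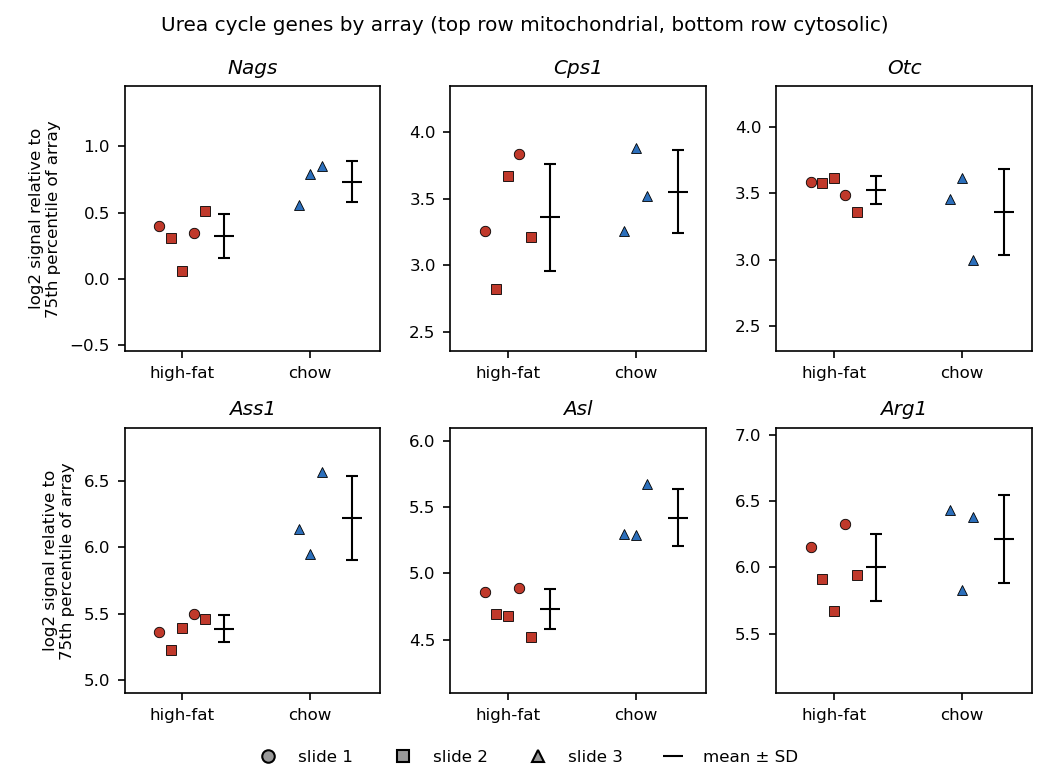
Log2 signal of each urea cycle gene against the array's 75th percentile (vertical axis, each panel 2 units tall) on the 5 high-fat and 3 chow arrays, with 1 point for each array and bars for mean ± SD. The shape of a point shows the slide, taken as arrays with the same scan start. Ass1 (5.23 to 5.50 on high-fat arrays, 5.95 to 6.57 on chow arrays), Asl and Nags do not overlap between diets, while Cps1, Otc and Arg1 do.

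The direction of these differences rests on the scaling between arrays. The high-fat arrays were brighter, with a 75th percentile signal of 725 to 1045 intensity units, against 278 to 559 on the chow arrays, and 79.0% to 92.7% of probes above background, against 66.9% to 71.7%. Slides, taken here as arrays that share a scan start in the file headers, also separate the diets. High-fat arrays 1 and 4 were on slide 1, high-fat arrays 2, 3 and 5 on slide 2, and the 3 chow arrays on slide 3. Slide and diet thus cannot be told apart. Slide 1 was scanned on a different day from slides 2 and 3. Before scaling, the processed signal of Ass1 was 29800, 34100, 43700, 33100 and 38400 intensity units on the high-fat arrays, against 21200, 34600 and 26500 on the chow arrays. That of Otc was 8740, 10800, 12900, 8210 and 8990, against 3300, 6890 and 2230. Unscaled, the Otc values of the high-fat arrays were all above those of the chow arrays, and the Ass1 values overlapped. Within the high-fat group Ass1 averaged 5.43 on slide 1 and 5.36 on slide 2, and Asl 4.87 and 4.63, all below the chow means. With slide as a random block the log2 fold changes were −0.83 for Ass1 and −0.67 for Asl, and neither passed (limma adjusted p = 0.534 and 0.6).

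Bright features as a whole had lower values on high-fat diet after this scaling. When features were divided by brightness into 10 equal groups, the median log2 fold change was −0.24 in the brightest group, with 79.0% of values negative, and 0.51 in the dimmest. All members but Nags lay in the brightest group, and Nags lay in group 8 counted from the dimmest, whose median was −0.08. Set against the median of its own group, Ass1 differed by −0.60, Asl by −0.45 and Nags by −0.33, while Otc differed by 0.41, Cps1 by 0.05 and Arg1 by 0.02. These distances are descriptions and carry no test, and the part of the brightness trend in the fold changes was not tested further. Under other normalizations Ass1 was −0.60 after quantile normalization (limma adjusted p = 0.0464), −0.72 with a normexp background (0.114) and −0.57 with cyclic loess (0.0617).

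**Figure D2:**
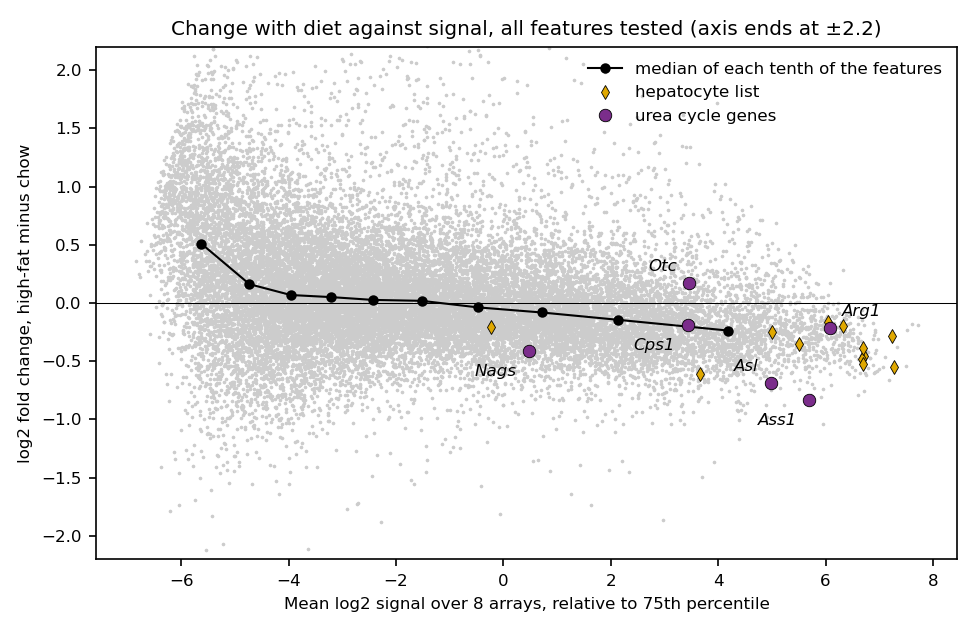
Log2 fold change of every tested feature, high-fat minus chow (vertical axis, ending at ±2.2), against its mean log2 signal over the 8 arrays relative to the 75th percentile (horizontal axis). The black line joins the medians of 10 equal groups of features, 0.51 at the dim end and −0.24 at the bright end. Ass1 and Asl lie below that line, Cps1 and Arg1 close to it and Otc above it.

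Differences between members within an array do not depend on a shift of the whole array, so they were also compared between diets. For Otc minus Ass1 the differences were −1.77, −1.65, −1.76, −2.01 and −2.09 on the high-fat arrays, against −2.68, −2.33 and −3.57 on the chow arrays. The arrays did not overlap, and the diets differed by 1.00 on the log2 scale (two-sided exact permutation p = 0.0179, the lowest value that 56 splits can give; 0.107 after Benjamini-Hochberg adjustment over the 15 pairs of members). Otc minus Asl did not overlap either: −1.26, −1.11, −1.06, −1.41 and −1.16 on the high-fat arrays, against −1.84, −1.67 and −2.67 on the chow arrays. That difference between diets was 0.86 (exact permutation p = 0.0179, adjusted 0.107). The Otc signal was thus closer to that of Ass1 and of Asl on every high-fat array than on any chow array. This describes the arrays and does not say which gene changed. Neither pair passed after adjustment, which no pair could do alone with 56 splits, and slide and diet cannot be told apart. Such differences keep any trend with brightness, and Ass1 and Asl were brighter than Otc. The part of that trend was not tested. The size rests in part on chow array 3: without it Otc minus Ass1 differed by 0.65 and Otc minus Asl by 0.55.

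Ass1 minus Asl differed between diets by −0.15, less than Otc minus Ass1 or Otc minus Asl. The smallest difference of the 15 pairs was 0.02, for Cps1 minus Arg1, which are not consecutive enzymes. In high-fat livers Ass1 minus Asl averaged 0.66 ± 0.17 (SD, n = 5), against 0.80 ± 0.13 (SD, n = 3) in chow livers, with overlapping values (exact permutation p = 0.268, adjusted 0.335). In high-fat livers Ass1 minus Arg1 averaged −0.61 ± 0.23 (SD, n = 5), against 0.01 ± 0.26 (SD, n = 3) in chow livers (exact permutation p = 0.0357, adjusted 0.107). Asl minus Arg1 averaged −1.27 ± 0.18 (SD, n = 5), against −0.80 ± 0.31 (SD, n = 3) on the same diets (exact permutation p = 0.0357, adjusted 0.107). Of the mitochondrial enzymes, Cps1 minus Otc averaged −0.17 ± 0.41 (SD, n = 5) in high-fat livers and 0.19 ± 0.37 (SD, n = 3) in chow livers (exact permutation p = 0.268, adjusted 0.335). Of the 15 pairs, which share members, 0 passed after adjustment, which no pair could do alone with 56 splits. Between diets, 2 of the pairs did not overlap. Pairs of other features were not examined, and of single features 9.17% did not overlap as lower and 7.94% as higher, so nothing particular to the cycle is read from that count.

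**Figure D3:**
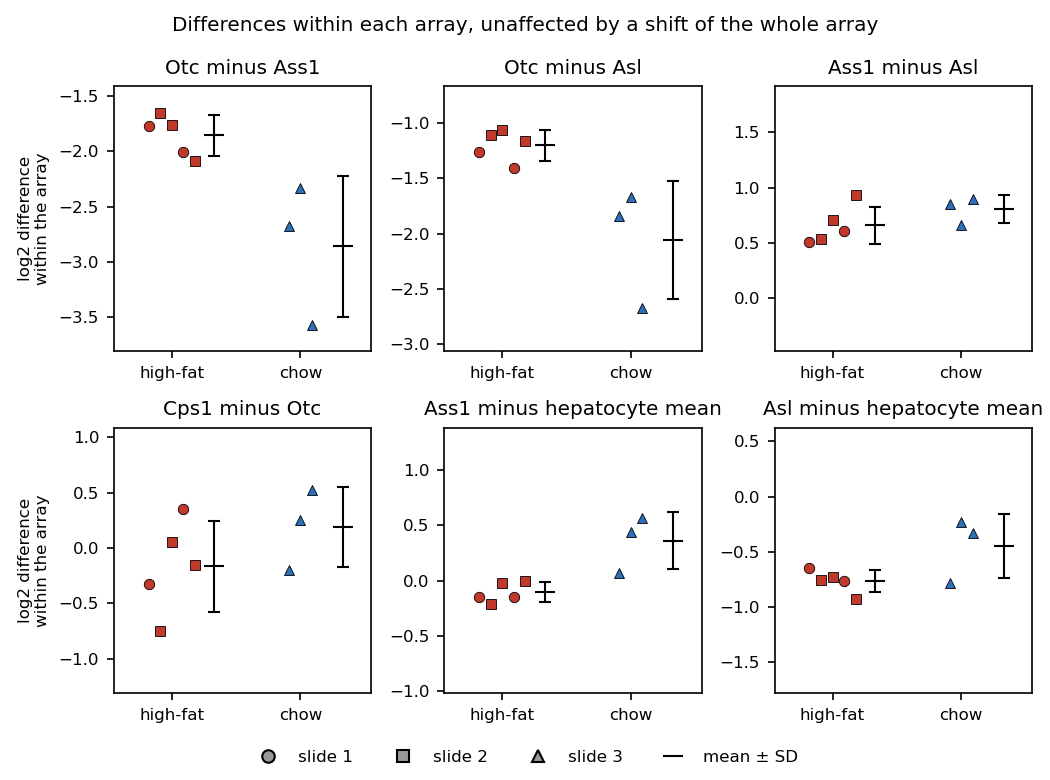
Differences in log2 signal between pairs of members, and between a member and the mean of 12 hepatocyte genes, within each array (vertical axis, each panel 2.4 units tall) for the 5 high-fat and 3 chow arrays, with 1 point for each array, its shape showing the slide, and bars for mean ± SD. Otc minus Ass1 (−2.09 to −1.65 on high-fat arrays, −3.57 to −2.33 on chow arrays), Otc minus Asl and Ass1 minus the hepatocyte mean do not overlap.

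Genes typical of hepatocytes were measured beside the enzymes. All 12 genes of the hepatocyte list, among them albumin (Alb) and transthyretin (Ttr), were above background on all 8 arrays. All 12 had negative fold changes, −0.61 to −0.16 on the log2 scale with a median of −0.37. Of the 12, 0 passed, where 0.49% of all features passed as lower. All but Hnf4a lay in the brightest group of features, where 79.0% of values were negative and the median was −0.24. The changes of Ass1 and Asl lay below that range, those of Cps1, Arg1 and Nags within it, and that of Otc above it. Relative to the mean of the 12 genes on the same array, Ass1 was −0.15, −0.21, −0.02, −0.15 and 0.00 on the high-fat arrays, against 0.07, 0.44 and 0.57 on the chow arrays. These values did not overlap (difference −0.46, exact permutation p = 0.0179, and 0.107 after adjustment over the 6 members). With 56 splits a member could not pass that adjustment alone. For Asl, on the same terms, the mean was −0.77 ± 0.10 (SD, n = 5) in high-fat livers and −0.45 ± 0.30 (SD, n = 3) in chow livers, with overlap (exact permutation p = 0.0893, adjusted 0.179).

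Markers of other cell types were measured as the sum of their signals, each in units of the 75th percentile signal of its array. The sum over 4 measured genes of sinusoidal endothelium ran between 28.6 and 31.9 in high-fat livers, against 32.3 and 33.4 in chow livers. For 8 Kupffer cell genes it ran between 28.6 and 39.1 in high-fat livers and between 38.7 and 50.3 in chow livers, and for 7 stellate cell and fibroblast genes between 13.7 and 19.9 in high-fat livers and between 17.9 and 32.9 in chow livers. The endothelial sums did not overlap between diets, and the others overlapped. Among single features 9.17% did not overlap as lower and 7.94% as higher, so nothing particular to endothelium is read from this. For 5 cholangiocyte genes the sum was 0.476 to 0.814 in high-fat livers and 0.599 to 0.919 in chow livers. For 5 lymphocyte genes it was 1.75 to 2.21 in high-fat livers and 1.95 to 2.82 in chow livers, and for 4 neutrophil genes 1.09 to 1.40 in high-fat livers and 0.558 to 1.33 in chow livers. For 4 erythroid genes it was 98.0 to 153 in high-fat livers and 106 to 166 in chow livers. Genes of neighbouring organs were low: 7 pancreas genes summed to 0.181 to 0.539 in high-fat livers and 0.294 to 0.531 in chow livers, and 4 kidney genes to 1.13 to 1.39 in high-fat livers and 1.02 to 1.40 in chow livers. Small intestine also makes Cps1 and Otc. Its 5 measured markers summed to 1.97 to 23.6 on high-fat arrays and 9.08 to 14.6 on chow arrays, and 1 of them, Fabp2, fell (limma adjusted p = 0.0132). Across the array 0.49% of features passed as lower and 3.07% as higher. No gene of these lists with a probe was below background on all 8 arrays, and their part in the results on the urea cycle was not tested.

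The genes around the cycle supply its nitrogen, carry its intermediates and use its products. Of 35 such genes 29 were tested, and 2 fell, the liver glutaminase Gls2 and the alanine aminotransferase Gpt, while 0 rose, against 0.49% of all features lower and 3.07% higher. The median log2 fold change of the 29 was −0.21. Gls2, which releases ammonia from glutamine in the same periportal cells, had values of 4.66, 4.37, 4.40, 4.74 and 4.52 on the high-fat arrays, against 5.39, 5.30 and 5.84 on the chow arrays. The groups did not overlap, and the log2 fold change was −0.98 ± 0.17 (SE; limma adjusted p = 0.0216). Gpt, which moves nitrogen between alanine and glutamate, had values of 3.20, 3.05, 3.05, 2.68 and 2.61 on the high-fat arrays, against 3.60, 3.90 and 4.27 on the chow arrays, with no overlap (−1.01 ± 0.21 SE; limma adjusted p = 0.0382). Of the 8 fits without a single array, Gls2 was called in 4 and Gpt in 1, and with slide as a random block neither passed (adjusted p = 0.364 and 0.579), while the log2 fold changes were −0.96 for Gls2 and −1 for Gpt.

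Glul, the glutamine synthetase of cells around the central vein, had the opposite sign. Its values were 3.56, 2.79, 3.04, 3.20 and 2.39 on the high-fat arrays, against 1.44, 2.02 and 2.09 on the chow arrays. The lowest high-fat array lay above the highest chow array. The log2 fold change was 1.15 ± 0.28 (SE; 95% interval 0.51 to 1.78), which missed the threshold (limma adjusted p = 0.0655). It passed in 7 of 15 other ways of processing and in 1 of 8 fits without a single array; the adjusted p was 0.0268 after quantile normalization and 0.542 with slide as a random block. Within the high-fat group its values on slide 1 were higher than those on slide 2. Of 11 measured genes typical of cells near the portal vein 1 fell, Gls2, with a list median of −0.16, and of 11 typical of cells near the central vein, Glul among them, 0 passed, with a median of −0.20. The share of all features that passed in either direction was 3.56%.

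For Glud1, the dehydrogenase that frees ammonia from glutamate, the fold change was −0.05 ± 0.14 on the log2 scale (SE; limma adjusted p = 0.874), and 0.19 after quantile normalization. Slc25a15, which exchanges ornithine and citrulline across the inner mitochondrial membrane, was dim and scattered, with values of −4.79, −4.56, −2.24, −2.89 and −2.55 in high-fat livers, against −3.92, −2.97 and −4.52 in chow livers (0.40 ± 0.66 SE; limma adjusted p = 0.798). Oat, which converts ornithine to glutamate, stood at −0.53 ± 0.24 (SE; limma adjusted p = 0.258), with values of 4.19 to 5.2 on the high-fat arrays and 5.22 to 5.47 on the chow arrays; the diets did not overlap, though high-fat array 3 lay close to the lowest chow array. Slc7a2, a carrier of arginine and ornithine in the plasma membrane, did not overlap either, at −1.43 to −0.83 on the high-fat arrays and −0.58 to −0.54 on the chow arrays (−0.53 ± 0.16 SE; limma adjusted p = 0.117). Over all features 9.17% did not overlap as lower and 7.94% as higher. Aqp9, a channel for glycerol and urea, stood at −0.24 ± 0.23 (SE; limma adjusted p = 0.611). The mitochondrial arginase Arg2 was well above background on 0 arrays, and the aspartate carrier Slc25a13 was not matched by accession and was not analysed here.

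Of 18 genes that control or modify the enzymes, 15 were tested and 0 passed with limma (median −0.17), where 3.56% of all features passed. The 15 log2 fold changes ran from −0.93 to 1.11, a wider range than that of the genes named below. Cebpa, a factor that drives transcription of urea cycle genes, had a log2 fold change of 0.29 ± 0.24 (SE; limma adjusted p = 0.567), and the hepatocyte factor Hnf4a −0.20 ± 0.15 (SE; 0.505). Gcgr, the receptor of glucagon, which raises urea cycle activity, had a value of −0.35 ± 0.21 (SE; limma adjusted p = 0.393). The mitochondrial deacylases Sirt3 and Sirt5, known to act on Otc and on Cps1, had values of −0.30 ± 0.30 and −0.17 ± 0.19 (SE; limma adjusted p = 0.641 and 0.675). The coactivator Ppargc1a was well above background on 0 arrays.

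**Figure D4:**
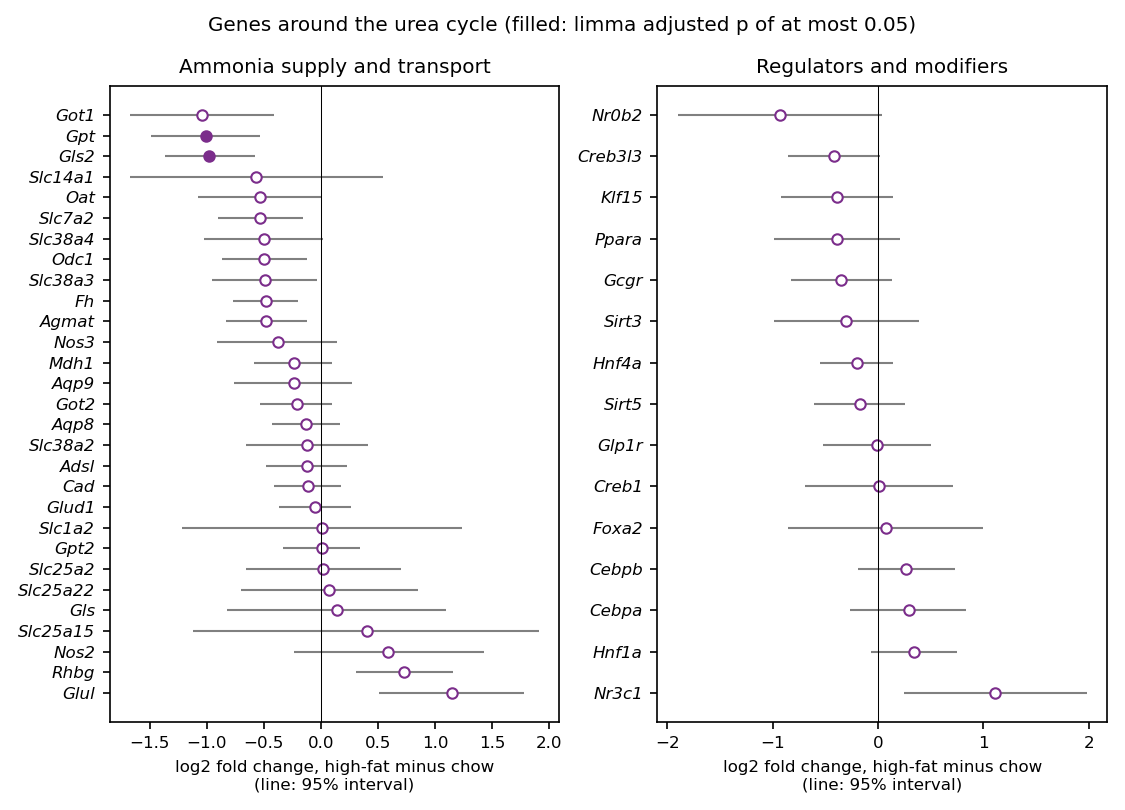
Log2 fold change, high-fat minus chow, with 95% intervals (horizontal axis) for 29 genes of ammonia supply and transport (left) and 15 regulators and modifiers of the cycle (right), sorted by value; filled points passed a limma adjusted p of 0.05. Gls2 (−0.98) and Gpt (−1.01) are filled, and Glul (1.15) lies at the other end of the left panel.

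The members differed in how closely they followed their mean profile over the arrays. That profile, each gene centred on its own mean, was −0.09, −0.27, −0.18, 0.04 and −0.19 in the 5 high-fat livers, against 0.17, 0.20 and 0.31 in the 3 chow livers. The root mean square distance from that profile over the 8 arrays was 0.146 for Nags, 0.187 for Asl, 0.217 for Arg1, 0.269 for Ass1, 0.286 for Cps1 and 0.343 for Otc. Each member is itself part of that profile. Over 13274 other genes the median distance was 0.367, and the share of them that lay closer to the profile was 6.04% for Nags, 14.6% for Asl, 21.6% for Arg1, 33.6% for Ass1, 36.6% for Cps1 and 46.4% for Otc. The nearest were Cyp4f4 (0.051), Gemin2 (0.054), Trir (0.056), Ptpn6 (0.057) and Mix23 (0.062). Their log2 fold changes were −0.39 to −0.36, with no overlap between diets, which their choice favours, since the profile itself did not overlap. Cyp4f4 is a cytochrome P450, Gemin2 a part of the complex that assembles splicing particles, and Ptpn6 a phosphatase of blood cells.

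**Figure D5:**
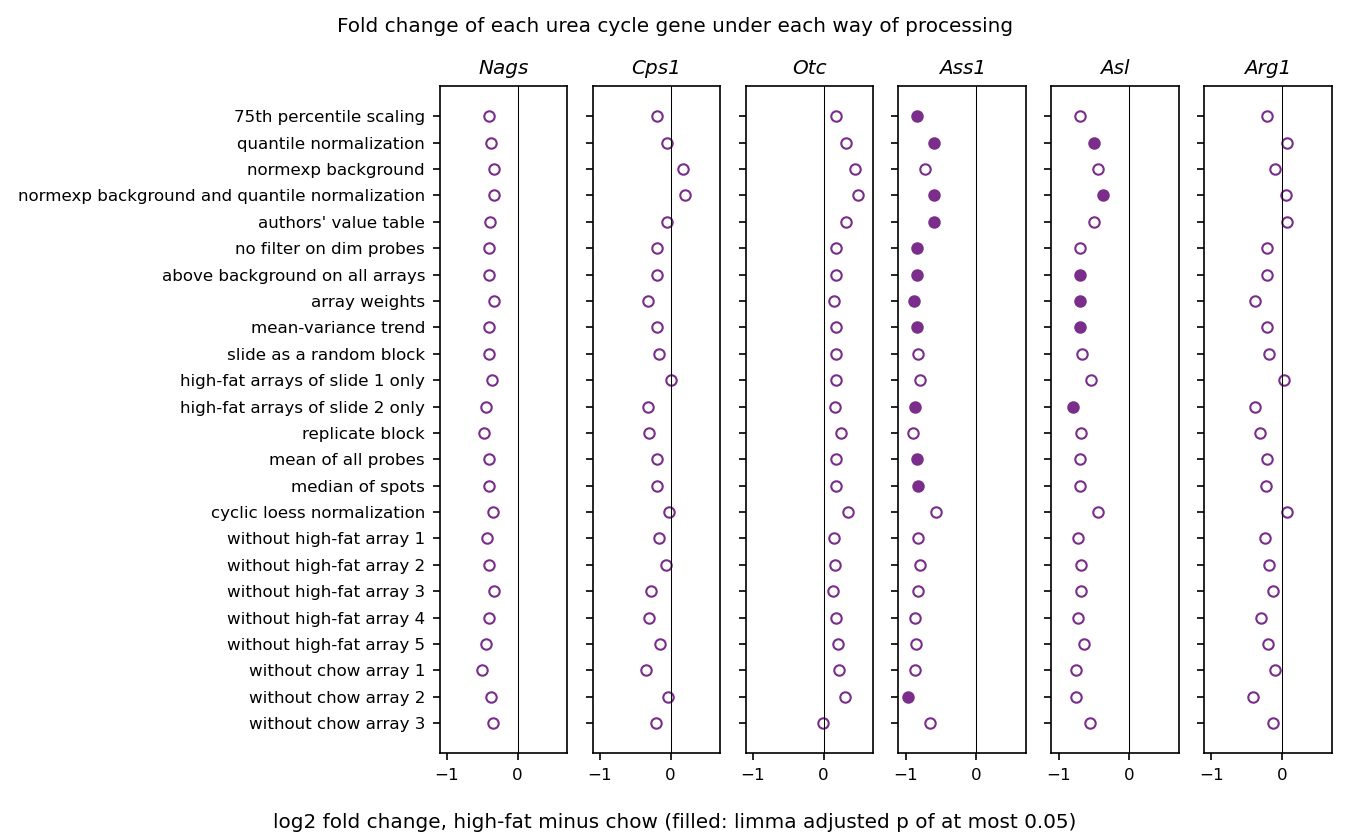
Log2 fold change of each urea cycle gene, high-fat minus chow (horizontal axis), under 75th percentile scaling, 15 other ways of processing and 8 fits that leave out 1 array each (rows); filled points passed a limma adjusted p of 0.05. Ass1, Asl and Nags stay below 0 in every row, Ass1 from −0.97 to −0.57, whereas Cps1, Otc and Arg1 lie on both sides of 0.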

How the data were processed

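Per the submitters' processing notes, Agilent Feature Extraction 11.0.1.1 produced the scanner files. Per the file headers, the deposited processed signal is in intensity units, background-subtracted and detrended within the array and not scaled between arrays; the median signal and local background are raw intensity, and other columns flag spots with 0 or 1. The authors' deposited value table holds log2 values, one for each probe, which correlated at 0.995 to 0.999 with the log2 processed signal; every column has a median of 6.42 and a 75th percentile of 9.27, so it is scaled between arrays, and how is not given in the sources used here. The array design is annotated on build rn4, so no gene coordinates are printed beyond those of the RefSeq windows.

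Outlier spots were left out (331 to 550 for each array), repeated spots were averaged after log2, and every array was set to its own 75th percentile. The filter asked for a share of 0.5 or more of the spots well above background in 3 or more arrays, and the brightest probe stood for a gene. Of 30367 probes, 18005 had a symbol from RefSeq accessions (GRCr8 table). Diets were compared with limma 3.58.1 (lmFit, eBayes, two-sided, Benjamini-Hochberg over 22871 features). Each member had 1 probe; with p adjusted over 25627 probes Ass1 had 0.0363 and Asl 0.0562. In simulated data with the spread of these 22723 complete features, 33 of 100 genes changed by 1 and 74 of 100 changed by 2 on the log2 scale were recovered. The number of arrays limits precision. Members, lists and tests were chosen with earlier results of these data known, and the tests of differences within an array, and cyclic loess, were added after seeing the values. Named genes were the members, 15 neighbours named whatever their p, neighbours that passed, and the 5 genes nearest the mean profile of the members.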

Additional observations from a re-analysis of the deposited data

How the results depend on the processing

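Over 15 alternatives other than leaving out an array, Ass1 was negative in all 15 and passed in 10, Asl negative in 15 and passing in 6, and Nags negative in 15 and passing in 0. The count of members called lower, 1 as reported, was 2 with quantile normalization, normexp background and quantile normalization together, probes above background on all arrays, array weights, a mean-variance trend or the high-fat arrays of slide 2 only, and 0 with a normexp background, slide as a random block, the high-fat arrays of slide 1 only or cyclic loess; no setting called a member higher, and 0% to 6.89% of all features were called lower. Leaving out single arrays gave 0 to 1. The features called (815) numbered 148 with a normexp background, 2114 with normexp and quantile, 486 above background on all arrays, 3768 with array weights, 84 with slide as a random block, 1978 and 2902 with the high-fat arrays of slide 1 or 2 only, 1295 with cyclic loess, and 374 to 789 without single arrays. Of genes around the cycle (2) 4 passed with quantile normalization or the authors' deposited table, 1 with a normexp background, 5 with normexp and quantile, a mean-variance trend or slide 2 only, 12 with array weights, 0 with slide as a random block and 0 to 2 without single arrays. Over all features in either direction, 4.77% passed with quantile normalization, 4.98% in the authors' deposited table and 0.647% with a normexp background. The share was 9.24% with normexp and quantile, 4.76% with a mean-variance trend, 12.7% with slide 2 only and 16.5% with array weights. It was 0.367% with slide as a random block and 1.64% to 3.45% without single arrays. Glul passed with quantile normalization as higher (limma adjusted p = 0.0268). Of the regulators (0), 2 passed with array weights and 1 with slide 1 or slide 2 only. In the same settings 16.5% of all features passed with array weights, 8.66% with slide 1 only and 12.7% with slide 2 only. The median of the members, −0.31, was −0.15 with normexp and quantile. With the replicate number as a block 4 features, 0 members and 0 genes around the cycle passed, and Ass1 was −0.90 (adjusted p = 0.192); same-numbered arrays of the diets correlated at 0.045, 0.035 and 0.065 in their deviations, high-fat array 2 correlated better with chow array 3, and the numbers were not taken as pairs. Signs turned for some genes that did not pass as reported, and not only for values near 0. The reported log2 fold changes of these genes were 0.40 for Slc25a15, −0.24 for Aqp9, −0.22 for Arg1 and −0.19 for Cps1. They were 0.17 for Otc, −0.17 for Sirt5 and −0.05 for Glud1. Arg1 was 0.07 with quantile normalization and in the authors' deposited table, 0.05 with normexp and quantile, 0.03 with slide 1 only and 0.06 with cyclic loess. Cps1 was 0.17 with a normexp background and 0.20 with normexp and quantile. Without single arrays Otc ran from −0.01 (without chow array 3) to 0.30. Glud1 was 0.19 with quantile normalization and in the authors' deposited table, 0.04 with normexp, 0.16 with both, 0.01 with slide 1 only and 0.21 with cyclic loess. Slc25a15 was −0.22 with normexp, −0.04 with slide 1 only and −0.06 with the replicate block. Aqp9 was 0.03 with slide 1 only and 0.00 with cyclic loess, and Sirt5 was 0.01 with slide 1 only. Within arrays, Cps1 minus Arg1 (0.02) was −0.12 with quantile normalization and in the authors' deposited table, −0.03 with slide 1 only, −0.08 with cyclic loess and −0.23 to 0.38 without single arrays. Without single arrays Arg1 minus Nags ran from −0.03 to 0.39, and relative to the hepatocyte mean Nags ran from −0.23 to 0.16 and Cps1 from −0.07 to 0.52. The cause of these changes was not tested.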
